A study of Mus musculus with 7 samples.

Results

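Red blood cells lose their nucleus before they reach the blood, but young red cells (reticulocytes) and their precursors in the marrow still hold messenger RNA, most of it for globin. Erythroid and globin transcripts were represented by 6 genes of the 21965 in the count table, namely Hba-a1, Hba-a2, Hbb-bs, Hbb-bt, Alas2 and Slc4a1. They were taken by symbol, as a readout of red cells in injured cord, and all 6 passed the filter on low counts that left 15743 genes for testing. Hba-a1 and Hba-a2 encode adult alpha globin, and Hbb-bs and Hbb-bt encode adult beta globin. Together these chains bind heme and carry oxygen in hemoglobin. Alas2 encodes the erythroid form of the enzyme that starts heme synthesis, and Slc4a1 encodes band 3, the anion exchanger of the red cell membrane.

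RNASeq was made from mice of 8 to 10 weeks that were killed 3 days (dpi 3) after a moderate contusion of the spinal cord at T9, made with a force of 50 kdyn and a displacement of 400 to 600 µm. Each library came from the injured 5 mm of cord of 1 mouse, taken after the blood had been flushed out with PBS through the heart. There were 3 libraries labelled Bmal1-/- (B6.129-Arntltm1Bra/J on C57BL/6, 2 females and 1 male) and 4 WT libraries (C57BL/6, 2 females and 2 males). The allele is carried in the germ line, so it is present in blood-forming cells as well as in cord, and the knockouts were bred from heterozygous parents while most WT mice were bought and 1 was a littermate. All mice of both groups were injured, and no uninjured cord was analysed here. The study asked how loss of BMAL1, a transcription factor of the circadian clock that the gene Arntl encodes, alters the contused cord, bleeding into it included. Red cells in such tissue can lie in vessels that the flush did not clear or in the hemorrhage itself. In bulk tissue, fewer red cells and less RNA in each of them cannot be told apart.

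Total counts per library ran from 38529644 to 44096737. The targeted gene Arntl stood at 22.5 to 24.2 CPM (counts scaled to a common library size, TMM factor included) under the label Bmal1-/- and at 11.9 to 15.3 CPM in WT, so its count goes against the label. That count sums all exons, those outside any deletion included, so it does not read the deleted part. The labels are used as given, and a gene called lower is lower in the libraries labelled Bmal1-/- than in WT. Nr1d1 and Dbp, clock genes that BMAL1 activates, were named after their values were seen and both passed as lower, at 5.31 to 7.28 against 29.2 to 36.8 CPM and at 7.80 to 8.83 against 25.3 to 39.3 CPM. Markers of neurons, which define the labelled tissue, summed to 6392 to 7520 CPM under the label Bmal1-/- and to 2702 to 6301 CPM in WT, with the lowest sum in WT replicate 3. These sums did not overlap and lay in the direction opposite to the erythroid ones. All 10 neuronal genes had a log2 fold change above 0, while 51.1% of all genes were under 0. In 4 neuronal genes every value under the label lay above every WT value. Of all genes, 26.9% did not overlap in one direction or the other, and 13.5% did not overlap as lower. In edgeR 0 of the neuronal genes passed, with 1 higher at an unadjusted p under 0.05, against 8.64% of all genes, and DESeq2 called 0. The part of neuronal content in the erythroid result was not tested.

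The paralogs within each globin pair are near copies, which limits what a count per gene can say. The coding sequences of Hba-a1 and Hba-a2 (426 bases each) differ at 1 base, and those of Hbb-bs and Hbb-bt (441 bases each) also at 1 base. In GENCODE release M21 transcripts, 62.2% of the 75-base windows of Hba-a1 and 81.0% of those of Hba-a2 occur in the other gene. For Hbb-bs and Hbb-bt the shares are 64.3% and 56.6%. A read from such a window cannot be assigned to either gene, and how the counting treated it is not given in the sources used here. The coding stretches below run 5′ to 3′ around the base that differs within each pair, shown in capitals, at coding position 381 in the alpha globins and 417 in the beta globins.
Hba-a1: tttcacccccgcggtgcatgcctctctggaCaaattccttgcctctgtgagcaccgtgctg
Hba-a2: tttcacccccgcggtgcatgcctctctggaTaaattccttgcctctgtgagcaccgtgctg
Hbb-bs: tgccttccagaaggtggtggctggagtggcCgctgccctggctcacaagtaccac
Hbb-bt: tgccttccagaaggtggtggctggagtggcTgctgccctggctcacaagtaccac

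Hba-a1 (ENSMUSG00000069919, chr11:32283511-32284465 of GRCm38) and Hba-a2 (ENSMUSG00000069917, chr11:32296489-32297298) are the adult genes of the alpha globin cluster. Hba-a1 was counted at 14.9, 9.31 and 6.80 CPM in replicates 1, 2 and 3 of the libraries labelled Bmal1-/-. In WT replicates 1 to 4 it was at 35.8, 43.4, 119 and 40.5 CPM. The groups did not overlap, and WT replicate 3 stood well above the other WT libraries. Hba-a2 was at 10.01, 5.36 and 4.69 CPM under the label Bmal1-/- and at 22.8, 26.5, 75.3 and 26.4 CPM in WT, again without overlap and with WT replicate 3 highest. The log2 fold change was -2.53 ± 0.52 (standard error) for Hba-a1 and -2.496 ± 0.53 for Hba-a2. In edgeR's quasi-likelihood (QL) test, adjusted over all genes tested by Benjamini-Hochberg, p was 0.0687 and 0.0729, and neither passed 0.05.

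Hbb-bs (ENSMUSG00000052305, chr7:103826534-103828096) and Hbb-bt (ENSMUSG00000073940, chr7:103812524-103813996) are the adult genes of the beta globin cluster, both on the minus strand. Hbb-bs was the most abundant of the 6 transcripts, at 29.8, 19.1 and 12.2 CPM under the label Bmal1-/- and at 67.4, 71.8, 199.9 and 71.9 CPM in WT. Its log2 fold change, -2.33 ± 0.51 (standard error), did not pass (adjusted p = 0.0768 in edgeR's QL test). Hbb-bt was at 3.25, 2.14 and 1.45 CPM under the label Bmal1-/-. In WT it was at 16.3, 18.4, 42.0 and 14.05 CPM. Every WT library thus lay at least 4.32-fold above the highest library labelled Bmal1-/-. Hbb-bt was the transcript of the 6 that passed the test, with a fold change of -3.31 ± 0.50 on the log2 scale (standard error) and an adjusted p of 0.0266 in edgeR's QL test. Its mean fell from 22.7 ± 12.996 CPM (SD, n = 4) to 2.28 ± 0.912 CPM (SD, n = 3), or 10.05% of the WT mean.

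Alas2 (ENSMUSG00000025270, chrX:150547375-150570638) was at 1.98, 1.39 and 0.888 CPM under the label Bmal1-/- and at 6.50, 5.66, 14.3 and 4.99 CPM in WT. These values did not overlap, and the log2 fold change was -2.47 ± 0.47 (standard error), with an adjusted p of 0.0556 in edgeR's QL test. Alas2 lies within Apex2, a gene on the opposite strand, and the strand setting of the counting is not given in the sources used here, so its counts are uncertain. Apex2 itself was at 6.17 to 7.50 CPM under the label Bmal1-/- and at 6.94 to 8.37 CPM in WT, and its log2 fold change was -0.15 ± 0.11 (standard error). Slc4a1 (ENSMUSG00000006574, chr11:102348824-102366203) was at 2.69, 2.32 and 1.04 CPM under the label Bmal1-/- and at 4.72, 7.12, 15.5 and 6.10 CPM in WT. It moved least of the 6, with a fold change of -2.05 ± 0.51 on the log2 scale (standard error) and an adjusted p of 0.101 in edgeR's QL test.

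**Figure D1:**
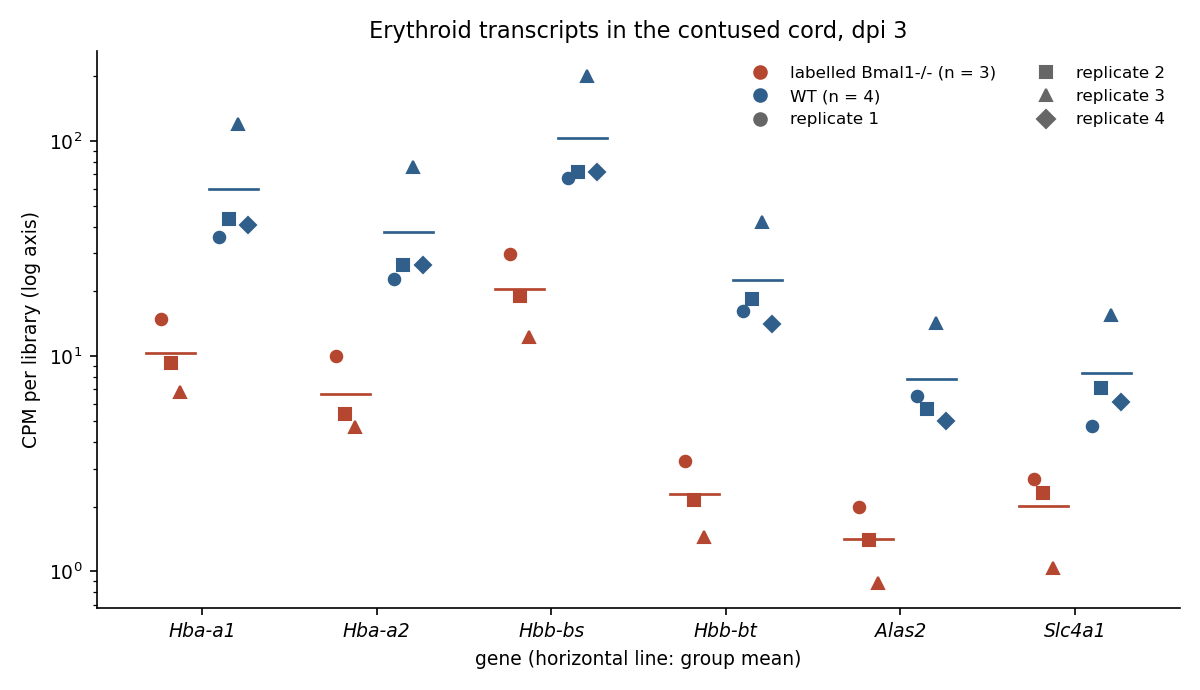
CPM of the 6 erythroid transcripts (log axis) in each library, with the libraries labelled Bmal1-/- in red, WT in blue, a marker shape for each replicate number and a horizontal line at the group mean. For each gene the 3 red points lie below the 4 blue ones, WT replicate 3 is highest and replicate 3 of the libraries labelled Bmal1-/- is lowest.

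In all, 1 of the 6 transcripts passed, against 0.915% of all genes tested that passed as lower. All 6 had an unadjusted p under 0.05. Groups that do not overlap, with the libraries labelled Bmal1-/- lower, were seen in 6 of 6 transcripts and in 13.5% of all genes tested, while 26.9% did not overlap in one direction or the other. The median log2 fold change of the 6 was -2.48, while that of all 15743 genes was -0.01, and 112 genes (0.711%) had a log2 fold change as low as that of Slc4a1 or lower. The 6 transcripts also ordered the libraries alike. WT replicate 3 was the highest library in 6 of 6, at 2.497 to 2.99 times the mean of the other WT libraries, and replicate 3 labelled Bmal1-/- was the lowest in 6 of 6. Across the 7 libraries the log2 CPM of any pair of them had a Pearson's r of 0.963 to 0.998, and of 0.892 to 0.992 once each genotype was centred on its own mean. These correlations describe 7 libraries that share their sequencing depth and tissue piece across all 6 genes.

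The calls depended on single libraries, and most on WT replicate 3. Without it 5 of the 6 transcripts passed, all but Slc4a1 (adjusted p = 0.0515 in edgeR's QL test), against 2.8% of all genes as lower. The changes were smaller without it, with log2 fold changes from -2.83 for Hbb-bt to -1.56 for Slc4a1. Leaving out any library other than WT replicate 3 or 4 took away the call of Hbb-bt, with adjusted p-values from 0.0552 to 0.129 in edgeR's QL test. Of all genes, those called lower were 0.17%, 0.838% and 0.189% without replicate 1, 2 or 3 labelled Bmal1-/-, and 0.255%, 0.511% and 0.427% without WT replicate 1, 2 or 4. The choice of tool mattered as well: with DESeq2's Wald test, which the study used, 6 of 6 passed, against 5.63% of all genes as lower, and with limma-voom 0 of 6 did, against 0.73%, with all 6 at an unadjusted p under 0.05. DESeq2 with its fold change prior also called 6 (5.48% of all genes as lower), and edgeR with sex as a covariate 0, with all 6 at an unadjusted p under 0.05 (0.667%). Hbb-bt alone was called with RLE size factors (0.896%), upper-quartile normalization (0.858%), total counts without TMM (1.09%), the globins left out of the library size (0.915%), no filter beyond 1 count (0.729%) and a mean count of at least 10 (0.912%).

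The direction was the same in both sexes. Among females (2 against 2) the log2 fold changes were -2.69 for Hbb-bt, -1.85 for Alas2, -1.71 for Hba-a1, -1.68 for Hba-a2, -1.51 for Hbb-bs and -1.24 for Slc4a1. All but Slc4a1 passed there, against 2.97% of all genes as lower. Among males, where 1 library labelled Bmal1-/- stood against 2 WT libraries, WT replicate 3 among them, the log2 fold changes ran from -4.28 for Hbb-bt to -3.38 for Slc4a1 and 0 of 6 passed, as in the whole table, with all 6 at an unadjusted p under 0.05. The interaction of genotype and sex, male minus female, had log2 estimates from -2.13 for Slc4a1 to -1.58 for Hbb-bt. With 1 male labelled Bmal1-/-, it cannot decide whether the sexes differ.

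Compared per kb of exon, to allow for gene length, the 6 transcripts held the same order in 7 of 7 libraries. In WT the means were 134 ± 84.4 CPM per kb for Hbb-bs, 73.6 ± 49.1 for Hba-a1, 56.6 ± 37.6 for Hba-a2, 32.3 ± 18.5 for Hbb-bt, 3.27 ± 1.80 for Alas2 and 1.71 ± 0.991 for Slc4a1 (SD, n = 4). In the libraries labelled Bmal1-/- they were 26.6 ± 11.6, 12.7 ± 5.10, 10.03 ± 4.34, 3.24 ± 1.297, 0.591 ± 0.228 and 0.413 ± 0.177 CPM per kb in that order (SD, n = 3). In WT, neighbours in this order differed by less than the larger of their SDs, apart from Hbb-bt and Alas2. In the libraries labelled Bmal1-/-, Hba-a1 and Hba-a2 and also Alas2 and Slc4a1 were that close, while the other neighbours lay further apart than their SDs. Reads shared by near copies may be missing from the globin levels, so the levels per kb of the globins are uncertain. The 4 globins together made up 0.0145%, 0.0162%, 0.0443% and 0.0154% of all counts in WT replicates 1 to 4. In the libraries labelled Bmal1-/- they made up 0.00572%, 0.00351% and 0.00248%. The 95% Wilson interval reached 0.00596% in the highest of these and started at 0.0141% in the lowest WT library, and such intervals cover counting error only. Globin was thus a small share of every library, with 992 to 17491 counts.

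Ratios within a library do not depend on its size or on its total of red cell RNA. The ratio of Hbb-bt to Hbb-bs counts was 0.109, 0.112 and 0.118 in the libraries labelled Bmal1-/-. In WT it was 0.241, 0.256, 0.210 and 0.195. The groups did not overlap and lay 0.99 apart on the log2 scale, with a mean of 0.113 ± 0.00476 (SD, n = 3) against 0.226 ± 0.0279 (SD, n = 4). The two-sided exact permutation test gave p = 0.0286, the smallest that 3 against 4 libraries allow, and p = 0.0857 after Benjamini-Hochberg adjustment over the 3 ratios tested. Doubling the one-sided p instead, a choice made after seeing the data, gave p = 0.0571 in the exact permutation test. As a share of both beta globins, Hbb-bt made up 9.83% to 10.6% of counts under the label Bmal1-/-, with a highest Wilson bound of 13.5%. In WT it made up 16.3% to 20.4%, with a lowest bound of 15.1%.

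The alpha globin pair showed no such shift. Hba-a2 made up 40.2%, 36.6% and 40.8% of alpha globin counts under the label Bmal1-/- and 38.9%, 37.9%, 38.7% and 39.5% in WT. The ratio of Hba-a2 to Hba-a1 was 0.646 ± 0.0614 (SD, n = 3) against 0.632 ± 0.0166 (SD, n = 4), with overlapping groups (two-sided exact permutation test, p = 0.714 and 0.914 after adjustment). The ratio of beta to alpha globin was 1.32 ± 0.130 (SD, n = 3) against 1.31 ± 0.0804 (SD, n = 4), again with overlap (two-sided exact permutation test, p = 0.914 and 0.914 after adjustment). These misses do not show that the ratios are equal, and the libraries labelled Bmal1-/- ran from 0.576 to 0.690 for the alpha pair and from 1.19 to 1.45 for beta to alpha.

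**Figure D2:**
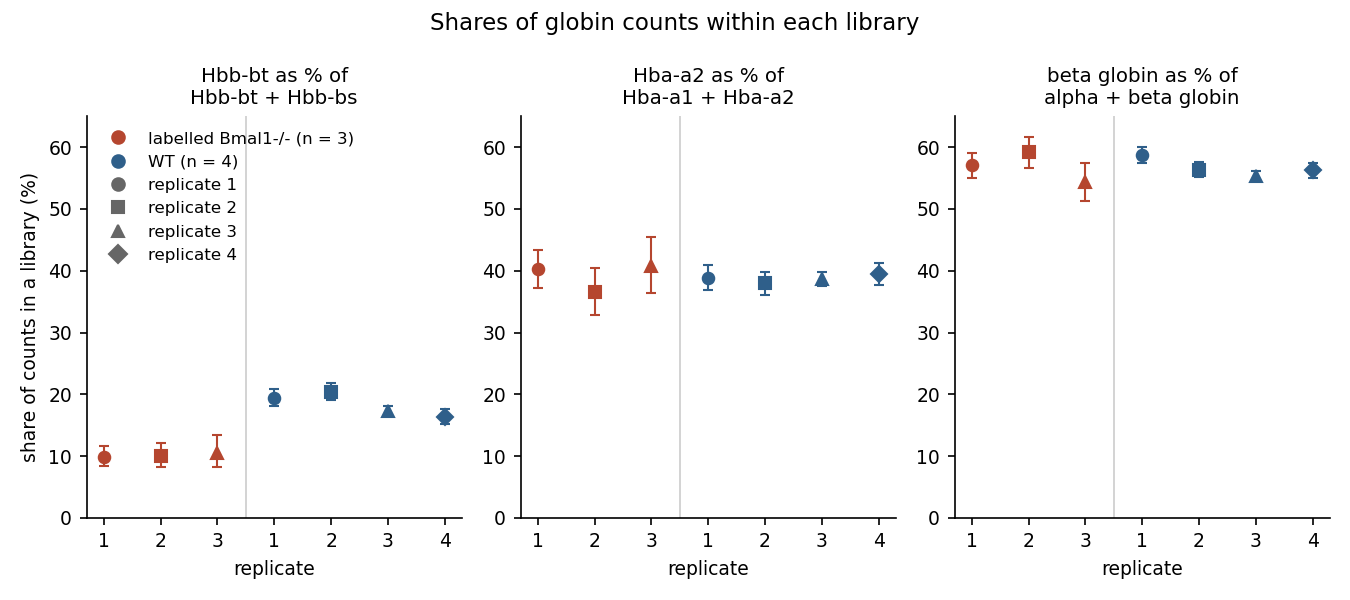
Share of counts within each library, in percent, for Hbb-bt among beta globins (left), Hba-a2 among alpha globins (middle) and beta among all 4 globins (right), with 95% Wilson intervals for counting error. The Hbb-bt share is 9.83% to 10.6% in red (labelled Bmal1-/-) and 16.3% to 20.4% in blue (WT), while the groups overlap in the other panels.

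The beta globin cluster lies on the chromosome that holds Arntl, and the alpha globin cluster does not. Arntl (ENSMUSG00000055116, chr7:113207465-113314126) starts 9.38 Mb from the beta globin genes. Within 1 Mb of the beta globins, 5 of 14 other genes tested passed (35.7%), 4 lower and 1 higher, against 1.57% of all genes in either direction. All are Trim genes, a family of antiviral and regulatory ubiquitin ligases whose paralogs share sequence, so their counts are uncertain. Trim12a had 2, 3 and 0 counts under the label Bmal1-/- and 293 to 381 in WT. Trim30d had 10 to 14 counts against 381 to 605, and Trim5 had 7 to 8 against 73 to 104. Trim34b went the other way, with 66 to 74 counts against 1 to 4, and another Trim paralog was lower. Within 1 Mb of the alpha globins, 0 of 18 genes passed in edgeR's test, with 1 at an unadjusted p under 0.05 and 1 called by DESeq2, and their median log2 fold change was 0.02.

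Mouse strains differ at the beta globin locus: C57BL/6 carries the haplotype for which Hbb-bs and Hbb-bt are named, and 129 strains, which the name of the knockout line gives as donor, carry another pair of adult genes. In mice bred for a targeted allele, sequence of the donor strain can stay beside it on the same chromosome. Whether the libraries labelled Bmal1-/- held such sequence at the beta globins was not tested, and in this design the allele and a segment that travels with it cannot be told apart.

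**Figure D3:**
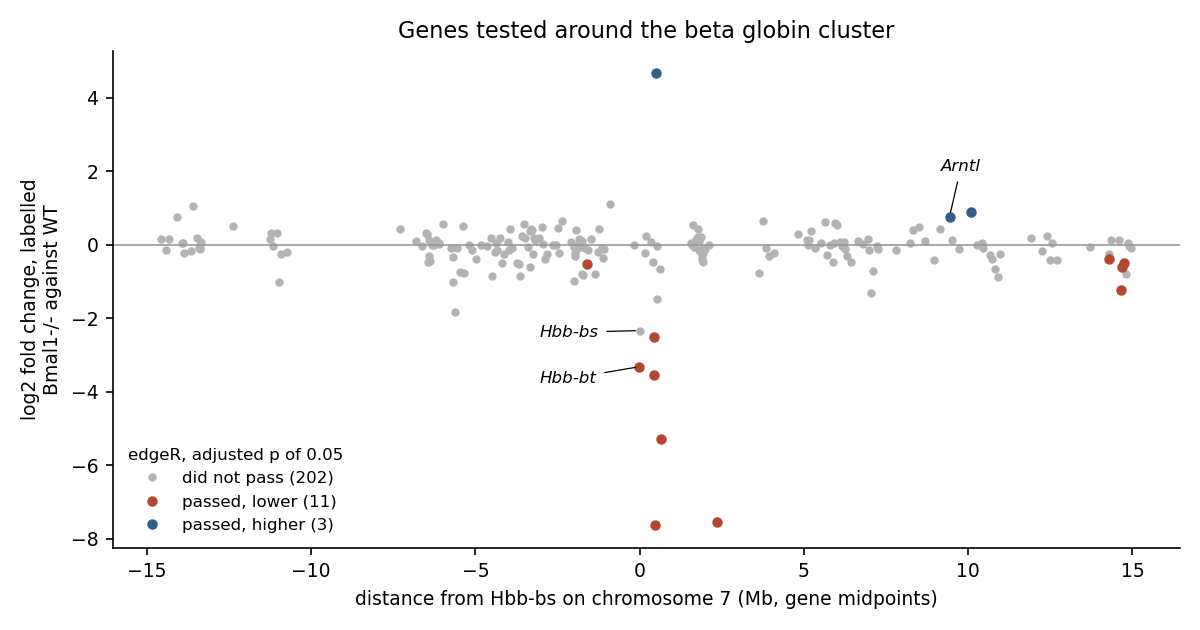
Log2 fold change of 216 tested genes within 15 Mb of Hbb-bs on chromosome 7, against the distance of gene midpoints in Mb, with genes that passed edgeR's test in red (11 lower) and blue (3 higher) and the rest in grey. Hbb-bt and a group of Trim genes within 1 Mb lie far from 0, and the fitted values of genes with few or no counts in a group depend on the prior count.

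The promoters of 5 of the 6 genes were read from RefSeq (GRCm38.p6), to show what the sequences hold that the choice of genes did not use. Letters searched on both strands in the 250 bases before each start were those of GATA factors (AGATAA, also with T in first place, G in last place or both), KLF factors (CCNCNCCC), the extended NFE2 site, the CCAAT box, a TATA-like run (ATAAA) and the E-box that BMAL1 and CLOCK bind (CACGTG). The 150 bases before the start are given 5′ to 3′ for 4 of them, with matches in capitals. Hba-a2 is left out because its promoter is 97.6% identical to that of Hba-a1, whereas those of Hbb-bs and Hbb-bt are 70.9% identical. The 4 stretches lie at chr11:32283522-32283671 (plus strand, Hba-a1), chr7:103827929-103828078 (minus, Hbb-bs), chr7:103813924-103814073 (minus, Hbb-bt) and chrX:150547267-150547416 (plus, Alas2). Their starts are those of RefSeq and differ from the GENCODE spans given above. The stretches of Hba-a1 and Hbb-bs lie wholly inside those spans, and those of Hbb-bt and Alas2 in part.
Hba-a1: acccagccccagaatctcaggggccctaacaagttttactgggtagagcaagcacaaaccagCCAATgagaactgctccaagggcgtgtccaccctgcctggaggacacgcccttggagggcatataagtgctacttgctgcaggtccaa
Hbb-bs: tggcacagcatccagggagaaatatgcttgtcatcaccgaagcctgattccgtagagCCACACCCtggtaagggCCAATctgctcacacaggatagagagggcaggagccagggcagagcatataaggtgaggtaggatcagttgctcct
Hbb-bt: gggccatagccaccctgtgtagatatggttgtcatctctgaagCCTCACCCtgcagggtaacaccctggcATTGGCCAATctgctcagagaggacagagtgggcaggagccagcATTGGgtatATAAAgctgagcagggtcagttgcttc
Alas2: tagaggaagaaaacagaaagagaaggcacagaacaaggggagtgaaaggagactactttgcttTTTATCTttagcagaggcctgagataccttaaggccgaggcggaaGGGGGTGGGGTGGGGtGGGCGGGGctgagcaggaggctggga

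All 4 globin promoters held a CCAAT box, 3 times in Hbb-bt counting both strands, against 33.8% of 32851 promoters. GATA letters stood in Hba-a1, Hba-a2 and Hbb-bs beyond the stretch shown and in Alas2 within it, where they overlap a TATA-like run, against 26.5% of promoters. KLF letters stood in Hbb-bs and Hbb-bt, in the form CCACACCC in the first and CCTCACCC in the second, and 4 times in Alas2 with overlaps among them. They stand in 45.9% of all promoters. The letters ATAAA, here in Hbb-bt and on the opposite strand in Alas2 (from -209 and -87), stand in 37.3%. ATAAA does not match the run atataag in the Hba-a1 and Hbb-bs stretches, so a miss there does not show that a TATA box is absent. NFE2 letters (0.353% of promoters) and the E-box (6.02%) stood in none of the 5 windows. A match is a description of letters, not of a bound site.

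The transcripts were next set beside 48 other erythroid genes in 5 lists, of which 45 were in the table and 37 could be tested. None of the 37 passed 0.05 in edgeR's QL test, against 1.57% of all genes, while 16 had an unadjusted p under 0.05, 15 lower and 1 higher, against 12.2% and 8.64% of all genes. Their median log2 fold change was -0.31. DESeq2's Wald test called 9 of them, 8 lower and 1 higher, against 5.63% of all genes as lower. With limma-voom 0 were called, against 0.73%. Scarce genes could pass the filter on low counts through WT alone, which favours a value under 0 among them, so their counts and medians are a description.

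Red cell membrane genes other than Slc4a1 had 9 of 15 values under 0 and a median of -1.11. Ermap, a blood group protein, had 25 to 43 counts against 68 to 133 (log2 fold change -1.34, standard error 0.31). It was named after its values were seen, and it did not pass. The 3 most abundant per kb, Tmod1, Add2 and Dmtn, encode parts of the membrane skeleton that neurons also use. They had log2 fold changes of 0.03, 0.36 and 0.36 (standard errors 0.10, 0.33 and 0.26), and Add2 and Dmtn were lowest in WT replicate 3, the library with the highest globin and the lowest neuronal sum.

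None of the 8 other enzymes of heme synthesis passed in edgeR or DESeq2, with 1 at an unadjusted p under 0.05 in edgeR, and their median log2 fold change was -0.01. Alas1, the form of the first enzyme that all cells use, was at 61.1 to 62.4 CPM under the label Bmal1-/- and 57.2 to 65.4 CPM in WT, so the groups overlapped for it and not for Alas2. Urod, Alad and Alas1 were the most abundant per kb, with log2 fold changes of 0.14, -0.13 and 0.04. Among erythroid factors, 5 of 7 could be tested and all 5 were under 0, with a median of -0.79. Epor, the erythropoietin receptor, was at 0.788, 0.952 and 0.964 CPM under the label Bmal1-/- and at 1.68, 1.23, 1.77 and 1.54 CPM in WT (log2 fold change -0.79, standard error 0.19, adjusted p = 0.0952 in edgeR's QL test). Tal1 and Zfpm1, also active in vessels or other blood cells, had log2 fold changes of -0.31 and -0.05. Klf1, which switches on adult beta globin, had 8 to 13 counts against 13 to 44 and was named after its values were seen. Gata1 and Gfi1b could not be tested, with 2 to 6 and 1 to 2 counts under the label Bmal1-/- and 5 to 25 and 2 to 18 in WT.

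Of genes abundant in late erythroblasts and reticulocytes, 8 could be tested, with a median of -0.19. Hemgn, an erythroid nuclear protein named after its values were seen, had 7, 5 and 3 counts under the label Bmal1-/- and 17, 57, 83 and 26 in WT, and its log2 fold change, -3.20 ± 0.68 (standard error, with an adjusted p of 0.0735 in edgeR's QL test), was close to that of Hbb-bt. Hemgn and Ermap passed once WT replicate 3 was left out (log2 fold changes of -2.76 and -1.10). Bpgm, Tfrc and Slc25a37, the most abundant of the list, had log2 fold changes of 0.08, 0.32 and -0.37. Tfrc, the transferrin receptor, which iron-requiring cells of many kinds carry, had every value under the label Bmal1-/- above every WT value. Of the other globins, the embryonic Hba-x, Hbb-bh1 and Hbb-bh2 had no count in any library. Hbq1b, the member of that list that could be tested, had 4 to 12 counts against 6 to 13. Hbb-y, another embryonic beta globin, had 0 counts under the label Bmal1-/- and 2, 0, 9 and 5 in WT, and Hbq1a had 1 to 5 against 1 to 7.

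**Figure D4:**
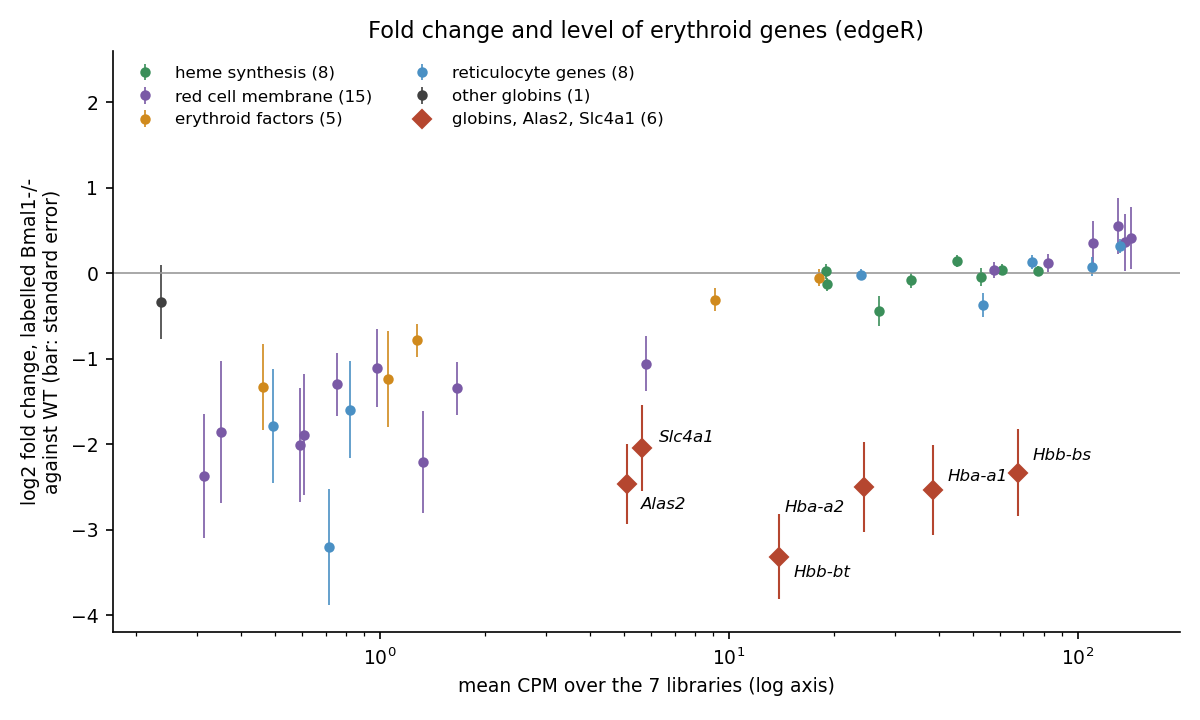
Log2 fold change (labelled Bmal1-/- against WT, bars are standard errors from edgeR) against mean CPM over the 7 libraries (log axis), for the 6 erythroid transcripts (red diamonds) and 37 other erythroid genes by list. The 6 lie between -3.31 and -2.05, and the scarce genes to the left include some that passed the filter on low counts through WT alone.

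Markers of other cells in blood and of tissues around the cord were read in the same libraries, since they could enter a piece of cord with red cells. Their part in the erythroid result was not tested. The 6 erythroid transcripts summed to 27.1 to 62.7 CPM under the label Bmal1-/- and to 154 to 466 CPM in WT. For 10 platelet markers the sums were 17.4 to 24.4 against 24.5 to 73.8 CPM, for 11 neutrophil markers 89.8 to 120 against 85.1 to 194 CPM, and for 9 lymphocyte markers 1.75 to 2.62 against 2.47 to 4.19 CPM. Of their 21 genes tested, 0 passed in edgeR. An unadjusted p under 0.05, always lower, was found for 4 of 6 platelet, 1 of 11 neutrophil and 1 of 4 lymphocyte genes. The share of all genes as lower was 12.2%. All 6 platelet genes tested had a log2 fold change under 0, against 51.1% of all genes, and 2 did not overlap, against 13.5% as lower. DESeq2 called 1 platelet gene as lower, against 5.63%. Scarce genes among them could pass the filter on low counts through WT alone. Pf4, the platelet chemokine, was at 11.4 to 18.5 against 17.2 to 62.4 CPM, with WT replicate 3 highest. S100a9, a neutrophil protein, was at 11.2 to 22.5 against 13.6 to 46.8 CPM. The platelet receptor genes Gp6 and Gp1ba had at most 1 count in the libraries labelled Bmal1-/- and at most 6 in WT. The neutrophil and lymphocyte sums overlapped between the groups. The erythroid sum did not, nor did the platelet sum, the latter by a narrow margin (24.4 against 24.5 CPM).

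Skeletal muscle markers moved further. All 10 had every value under the label Bmal1-/- below every WT value, against 13.5% of all genes, and 9 passed, against 0.915%, with sums of 8.23 to 9.66 against 59.2 to 80.9 CPM. Fibroblast markers summed to 533, 2632 and 441 CPM in replicates 1, 2 and 3 labelled Bmal1-/- and to 1353 to 2238 CPM in WT. Of these 10 genes 9 had a log2 fold change under 0, against 51.1% of all genes. The matrix proteoglycan gene Fmod was the 1 that passed (-1.88), against 0.915% of all genes as lower. DESeq2 called 2 of the 10 as lower, against 5.63%. Fmod and Lum (-1.47, not passed), both named after their values were seen, were the 2 of 10 without overlap between the groups. The share of all genes without overlap as lower was 13.5%. Endothelial sums were 419 to 489 against 508 to 857 CPM. All 10 endothelial genes had a log2 fold change under 0, and 6 did not overlap, against 13.5% of all genes. Cdh5, named after its values were seen, passed (-0.85, adjusted p = 0.0466 in edgeR's QL test). An unadjusted p under 0.05 was found for 6, against 12.2% as lower, and DESeq2 called 3 as lower, against 5.63%. Macrophage sums, 2149 to 2732 against 2163 to 3911 CPM, overlapped. WT replicate 3 had the highest endothelial and macrophage sums. Of the heme clearance genes, Hmox1, the heme-degrading enzyme that heme itself induces, was at 544, 352 and 489 CPM under the label Bmal1-/- and at 982, 625, 2142 and 941 CPM in WT, so that WT replicate 3 was highest for it too. Its log2 fold change was -1.34 (standard error 0.42) and it did not pass, nor did the heme transporter gene Slc48a1 (-0.26, standard error 0.11). Of the 7 genes of that list edgeR called 0, with 4 lower at an unadjusted p under 0.05, against 12.2% of all genes. The groups did not overlap in 4, all lower, against 13.5% of all genes. DESeq2 called 3, all lower, against 5.63%.

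**Figure D5:**
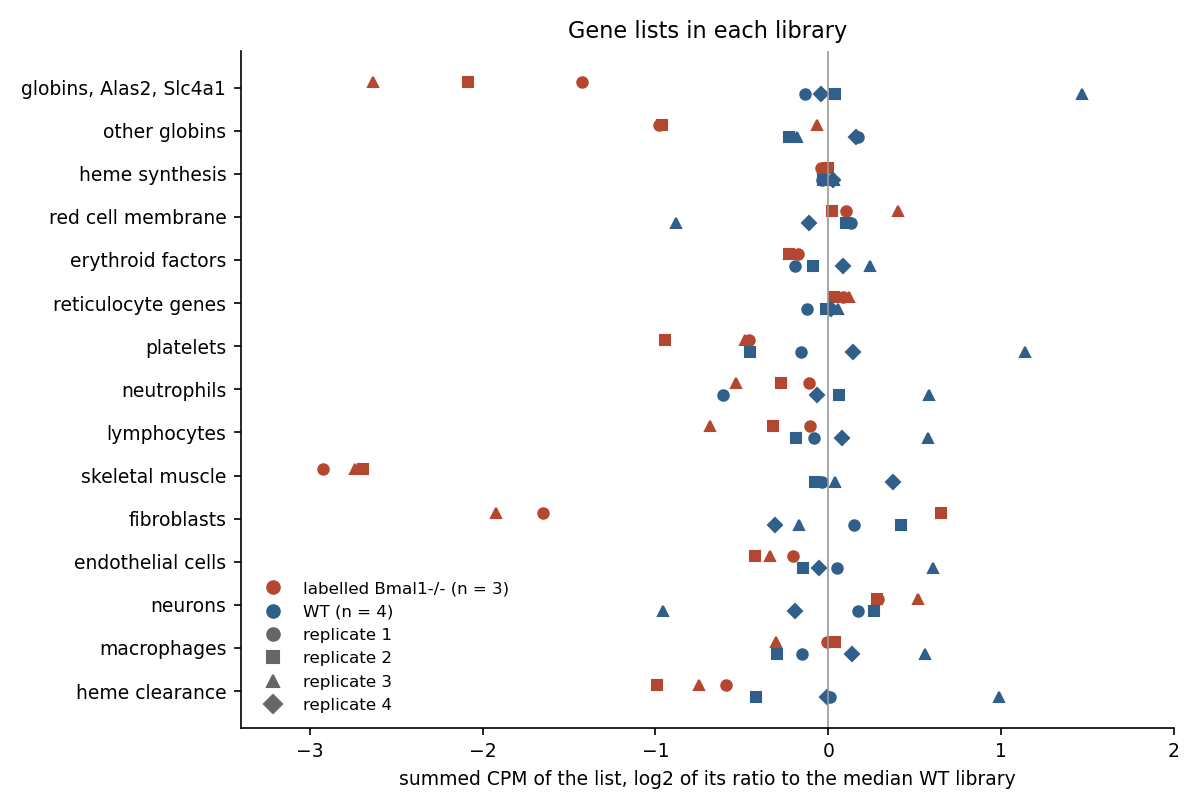
Summed CPM of each gene list in each library, as the log2 of its ratio to the median WT library (0, vertical line), with the libraries labelled Bmal1-/- in red and WT in blue. The erythroid transcripts and skeletal muscle markers show the widest separation of the groups. WT replicate 3 lies to the right for the erythroid transcripts, erythroid factors, platelets, neutrophils, lymphocytes, endothelial cells, macrophages and heme clearance genes. It lies to the left for neurons and for red cell membrane genes.

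Genes with a pattern like that of the 6 transcripts were sought over all 15737 other genes tested, by Pearson's r between log2 CPM and the mean centred profile of the 6 over the 7 libraries. The 10 highest were Cntln, Cbfa2t3, Eme1, Mief2, Cox20, Ermap, Ptges3l, Ubtf, Fgf2 and Mns1, with r from 0.991 to 0.999. Ermap was the gene among them from the erythroid lists. Most of them moved far less than the globins, with a log2 fold change of -0.35 for Cntln and -0.11 for Mief2. With each genotype centred on its own mean, Preb, D8Ertd738e, Selenow, Dhrs7b, Cntln, Gosr2, Snx3, Mrpl12, Eme1 and Mrpl34 came highest, and Cntln and Eme1 were on both lists. With 7 libraries such values come easily. In all, 209 genes had an r to the mean profile as high as the lowest r between any pair of the 6 transcripts. Of these, 1 was from the erythroid lists. An r to a mean profile and an r between genes are unlike measures, so the count is a description. With each genotype centred it was 1224 genes, 6 of them from the erythroid lists.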

How the data were processed

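The authors prepared stranded poly-A libraries (TruSeq, 75 cycle kit), checked reads with FastQC 0.10.1, used Tophat2 for alignment (GRCm38) and took gene counts from HTSeq 0.10.0, per the submitters' processing notes. The deposited values are raw counts per gene without normalization, and 3039 of the 21965 genes have no count in any library. How multi-mapped reads were treated and which strand setting was used are not given in the sources used here.

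Gene IDs were matched to symbols (21939 matched) and to GENCODE M21 for positions, exon lengths and overlaps. The filter on low counts was filterByExpr by genotype, and library sizes were scaled by TMM (factors 0.977 to 1.02). The quasi-likelihood test of edgeR 4.0.16 (limma 3.58.1, R 4.3.3) was fitted over all genes left, and p-values were adjusted over them by Benjamini-Hochberg, with 0.05 as threshold. A gene is said to have passed, risen or fallen on that test. A log2 CPM with a prior count of 2 was used for likeness between genes. Ratios of globin counts were tested with an exact permutation test over libraries, which gives no p under 0.0286, and adjusted over 3 ratios. Wilson intervals were at 95%. Each library is 1 mouse, so the tests set the difference between the groups against the spread between mice. Spread between mice limits the precision of the 6 transcripts, which had 35 counts or more in every library.

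The 6 transcripts and all lists were chosen with earlier results of these data known. Named were the 6, in each erythroid list the genes that passed or the 3 most abundant per kb, the 10 genes most like the 6 on each scale, the most abundant markers of other lists, Arntl, and genes within 1 Mb of a globin cluster that passed. A gene named outside this rule is said to be so, and some genes that meet it are not reported here. Alternatives tried were limma-voom, DESeq2 1.42.0 (also with its prior), other size factors and filters, globins left out of the library size, sex as a covariate or each sex alone, a replicate block, each library left out, and 0.5 added to the counts of a ratio. The replicate numbers do not pair the mice: same-numbered libraries had correlations of their deviations of -0.17, 0.18 and -0.29. Promoters came from RefSeq (GRCm38.p6, scipy 1.17.1, Biopython 1.88 and python 3.11.15 for the sequence and exact tests) and plots from matplotlib 3.10.9.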

Additional observations from a re-analysis of the deposited data

Results flagged for a closer look

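Of 38 values checked across the 4 WT libraries (levels of the erythroid genes named, the globin ratios and the summed lists), 5 had 1 library far from the rest by Dixon's test at its 95% limit. In all 5 it was WT replicate 3, which was high. It held Hba-a1 at 119 CPM (other WT libraries 35.8 to 43.4), Hba-a2 at 75.3 CPM (22.8 to 26.5), Hbb-bs at 199.9 CPM (67.4 to 71.9), Hbb-bt at 42.0 CPM (14.05 to 18.4) and Alas2 at 14.3 CPM (4.99 to 6.50). The gap to the nearest library was 0.837 to 0.966 of the range over WT. Chance gives such a gap in about 1 of 20 groups, and the 5 genes are not independent, since they move together across libraries. The group labelled Bmal1-/- had 3 libraries and could not be checked in this way.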

How the results depend on the processing

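The number of the 6 erythroid transcripts that passed, 1 with edgeR, was 6 with DESeq2 with or without its prior, 5 among females, and 0 with limma-voom, with sex as a covariate, with the replicate block and among males. With each library left out in turn it ran from 0 to 5. The cause of these moves was not tested. The 6 log2 fold changes stayed under 0 in every alternative, from -4.28 to -1.02. The other erythroid genes, of which 0 passed, gave 9 (8 lower) and 7 (6 lower) with DESeq2 without and with its prior. Of all genes, 5.63% and 5.48% were called lower there. With a library left out the other erythroid genes gave 0 to 2, against 0.17% to 2.8% of all genes as lower. With the replicate block 0 of the 6 and 0 of all genes passed as lower, although all 6 had an unadjusted p under 0.05. The numbers do not pair the mice, as the correlations of same-numbered libraries show.

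The log2 ratio of Hbb-bt to Hbb-bs differed by -1.06 with the replicate block, -1.17 among females, -0.78 among males and -1.06 to -0.93 with a library left out. In these designs p cannot reach 0.05. Doubling the one-sided p, a choice made after seeing the data, left the difference at -0.99 with p = 0.0571 in the exact permutation test. The difference in the Hba-a2 to Hba-a1 ratio was -0.0024 among females and -0.022 to 0.11 with a library left out, and that of beta to alpha globin was -0.087 among males and -0.059 to 0.083 with a library left out. Small log2 fold changes turned sign for Hbq1b (0.35, males), Alas1 (-0.0018 without TMM, -0.0068 in males), Dmtn (-0.047, females), Add2 (-0.15, females), Zfpm1 (0.040, females) and Bpgm (-0.13, males, and -0.0063 to 0.15 with a library left out). Tmod1 did so without TMM (-0.0088), with sex (-0.0052), with the block (-0.020), among males (-0.082) and with a library left out (-0.015 to 0.12).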
